A study of Mus musculus with 36 samples.

Results

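The antigen receptor loci are the stretches of the mouse genome that encode immunoglobulins and T cell receptors, and they were taken here as the 10 kb windows of 6 fixed spans of GRCm38. These windows numbered 940 of 272257 in the genome: 280 of Igh (chr12:113200001-116000000), 330 of Igk (chr6:67500001-70800000), 30 of Igl (chr16:19000001-19300000), 190 of Tra/Trd (chr14:52400001-54300000), 80 of Trb (chr6:40800001-41600000) and 30 of Trg (chr13:19100001-19400000). The RefSeq annotation placed 664 receptor segments in them, of which 525 were V, 24 D, 94 J and 21 C, with 176 of the 664 marked as pseudogenes, so the spans hold what their name says. They also held 28 other protein-coding genes, among them the trypsin genes inside Trb.

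The data were maps of 2 kinds of DNA lesion in 6 tissues (bone marrow, peripheral blood mononuclear cells or PBMCs, brain, heart, liver and sperm) of male C57BL/6J mice aged 24 months, with no treatment or engineered allele named in the labels. Single-strand breaks (SSBs) were mapped with SSiNGLe and apurinic/apyrimidinic (AP) sites with SSiNGLe-AP, each at the nucleotide of the lesion, in 2 animals per tissue, which gives 12 SSB and 12 AP libraries. Per the labels, red cells were lysed in the bone marrow, PBMCs were the cells of blood kept by a Ficoll gradient, and the sperm were motile cells of the epididymal tail. No label gives the share of B or T cells in any sample, and RNA was not analysed here, so tissues could not be checked against marker genes. The labels name 2 mice as the source of all tissues, so the 12 libraries of an assay may come from only 2 animals and p-values measure the spread between these libraries. The permutation tests treated the 2 libraries of a tissue as separate units, so their p-values do not measure the spread between tissues.

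A developing lymphocyte builds its receptor by V(D)J recombination. The RAG1/RAG2 recombinase cuts at recombination signals, a conserved heptamer and nonamer that flank each V, D and J segment, and the DNA between the joined segments is either removed as a circle or inverted. B cells rearrange Igh and then Igk or Igl, T cells rearrange Trb, Trg, Trd and Tra, and a Tra rearrangement removes the Trd genes that lie within Tra. Class switching of a B cell removes further DNA between the heavy chain constant genes. The cells proper to brain, heart and liver, and sperm, keep these loci in germline form. Whole organs were ground, however, so lymphocytes within them, as in blood, are part of those samples. The comparison made here was therefore whether bone marrow and PBMCs, taken as the samples richest in lymphocytes, carried fewer or more lesion positions in these loci than the other 4 tissues. In DNA from a mixed tissue, a segment lost from a few cells and fewer lesions per copy of that segment cannot be told apart.

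The sequence tables at hand covered 40 promoters inside the loci (RefSeq, GRCm38.p6, 250 bases before to 50 after the start site) and no receptor segment, so no recombination signal could be printed. Of these, 4 are shown with every nucleotide that carried a lesion in any of the 24 libraries in capitals. Those of Adam6b and Adam6a, genes of sperm-surface metalloproteases, stand in the part of Igh that recombination removes: Adam6b among the D segments and Adam6a between D and V. Rpia (ribose 5-phosphate isomerase), past the end of Igk, held the most SSB positions and Prss1 (a trypsinogen), within Trb, the most AP positions of the 40.
Adam6b, chr12:113489315-113489614, plus strand: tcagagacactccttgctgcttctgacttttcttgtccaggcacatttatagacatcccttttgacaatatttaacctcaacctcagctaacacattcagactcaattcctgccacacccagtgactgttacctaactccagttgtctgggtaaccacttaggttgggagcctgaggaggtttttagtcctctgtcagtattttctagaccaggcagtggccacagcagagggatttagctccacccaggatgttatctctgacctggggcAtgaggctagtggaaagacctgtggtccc
Adam6a, chr12:113543658-113543957, plus strand: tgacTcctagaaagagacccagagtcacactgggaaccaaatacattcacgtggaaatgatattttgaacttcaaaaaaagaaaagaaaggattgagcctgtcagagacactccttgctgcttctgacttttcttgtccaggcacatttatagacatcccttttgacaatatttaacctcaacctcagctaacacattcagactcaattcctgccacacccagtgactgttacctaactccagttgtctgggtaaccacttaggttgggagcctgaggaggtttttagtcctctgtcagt
Rpia, chr6:70792126-70792425, minus strand: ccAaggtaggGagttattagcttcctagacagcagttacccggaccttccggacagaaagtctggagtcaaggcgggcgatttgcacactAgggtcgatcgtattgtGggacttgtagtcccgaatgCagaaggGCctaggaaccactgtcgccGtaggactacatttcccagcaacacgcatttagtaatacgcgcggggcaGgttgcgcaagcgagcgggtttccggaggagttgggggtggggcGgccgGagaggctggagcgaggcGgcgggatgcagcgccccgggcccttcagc
Prss1, chr6:41458680-41458979, plus strand: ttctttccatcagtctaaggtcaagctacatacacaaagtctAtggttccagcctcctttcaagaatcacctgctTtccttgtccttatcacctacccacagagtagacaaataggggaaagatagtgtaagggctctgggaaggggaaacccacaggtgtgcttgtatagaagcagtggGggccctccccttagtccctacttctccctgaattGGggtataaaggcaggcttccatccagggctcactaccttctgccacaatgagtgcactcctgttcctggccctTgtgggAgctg
Lesions in the Adam6 promoters were a single AP position in Adam6b, from a PBMC library, and a single SSB position in Adam6a, from a sperm library. The Rpia promoter held 9 SSB and 4 AP positions, and the Prss1 promoter 2 SSB and 7 AP positions. Bone marrow and PBMC libraries supplied 14 of the 58 SSB and 28 of the 85 AP positions of the 40 promoters, where overlapping promoters of Abhd4 and Dad1 were both counted. On the strand listed in the files, the base at the 85 AP positions was A in 36.5%, G in 32.9%, T in 16.5% and C in 14.1%, next to 38.5%, 36.2%, 9.23% and 16% over all 32851 promoters. At the 58 SSB positions it was C in 39.7%, G in 32.8%, T in 20.7% and A in 6.9%, next to 39%, 35.5%, 20.1% and 5.51%. The heptamer of the recombination signal (CACAGTG, either strand) stood in 7 of the 40 promoters, or 17.5%, and in 6.81% of all promoters, and in none of the 4 printed.

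Mapped lesion positions were sparse in the loci in every tissue. How uniquely reads map there was not measured, so few lesions and poor mapping cannot be told apart. The libraries held 225011 to 1041983 SSB positions and 460719 to 963258 AP positions, each counted once, of which 0.196% to 0.232% and 0.201% to 0.234% lay in the 940 windows; the windows make up 0.345% of the genome's. Their total over 12 libraries was 11627 SSB and 19180 AP positions. The median member window held 10 SSB and 17 AP positions over the 12 libraries, against 18 and 29 for all windows. Igk was the sparsest large locus, at 0.179 ± 0.0191 SSB and 0.173 ± 0.0107 AP positions per kb per 1000000 library positions (LPKM; SD, n = 12), which is 0.487 and 0.472 times the genome mean of 0.367. Igh reached 0.659 and 0.696 times the genome mean, Tra/Trd 0.612 and 0.661, Igl 0.477 and 0.523, and Trb 0.803 and 0.841. Only Trg, at 0.406 ± 0.0447 and 0.407 ± 0.0417 LPKM (SD, n = 12), was above the genome mean. Igh also stood low against its own surroundings: its density was 0.293 to 0.416 times that of the 1 Mb on either side in the SSB libraries and 0.309 to 0.482 times in the AP libraries. In Trg the same ratio ran from 0.798 to 1.11 and from 0.812 to 1.14. Windows with no position in any of the 24 libraries were 31 of the 940, or 3.3%, and 6.52% of the genome's, with 14 of the 31 in Tra/Trd.

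In Igh, Igk, Tra/Trd and Trb, the loci split by segment class, lesions were on average denser in the constant, joining and diversity segments than in most V segments. The constant genes of Igh (167 kb, from Igha to Ighm) carried 0.749 ± 0.116 SSB and 0.668 ± 0.0835 AP LPKM (SD, n = 12). The V segments of Igh, split into 4 equal stretches numbered from the D segments outwards, carried means of 0.171 to 0.201 SSB and 0.196 to 0.222 AP LPKM. Constant genes were denser than all 4 V stretches in 12 of 12 SSB and 12 of 12 AP libraries. The D-J span of Igh (98.3 kb) lay between them, with 0.408 ± 0.11 SSB and 0.422 ± 0.105 AP LPKM. It was denser than all 4 V stretches in 11 of 12 SSB and 12 of 12 AP libraries. The J and C segments of Igk span only 4.19 kb and rest on few positions. They carried 0.994 ± 0.471 SSB and 0.944 ± 0.707 AP LPKM (SD, n = 12), from 0 to 1.71 and from 0.248 to 2.41. They exceeded all 4 V stretches of Igk in 11 of 12 SSB and 12 of 12 AP libraries. In the Tra/Trd locus the J segments of Tra (63.8 kb) carried 0.79 ± 0.175 SSB and 0.929 ± 0.166 AP LPKM. They too exceeded all 4 V stretches in 12 of 12 libraries of each assay. The constant gene of Tra (3.68 kb) ran from 0 to 2.93 SSB and from 0 to 2.29 AP LPKM by library. The V stretches of Tra/Trd, numbered from the J segments outwards, fell to 0.0684 ± 0.0206 SSB and 0.0791 ± 0.0228 AP LPKM in stretch 3. That is 0.186 and 0.215 times the genome mean, the least dense of the 22 segment classes in mapped positions. Whether reads map uniquely in this stretch was not tested. The V span of Trb carried 0.276 SSB and 0.295 AP LPKM and its D, J and C segments 0.91 and 0.929, denser in 12 of 12 libraries of each assay. These orders by library cover sperm, brain, heart and liver as well as bone marrow and PBMCs. The first V stretch of Tra/Trd overlaps the Trd segments, and the V span of Trb, which includes Trbv31 beyond the constant genes, overlaps its D, J and C segments. Over the 940 windows, summed SSB and AP positions had a Spearman correlation of 0.871, and 0.923 over all windows; the points share base composition and mapping, so these are given as a description.

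**Figure D1:**
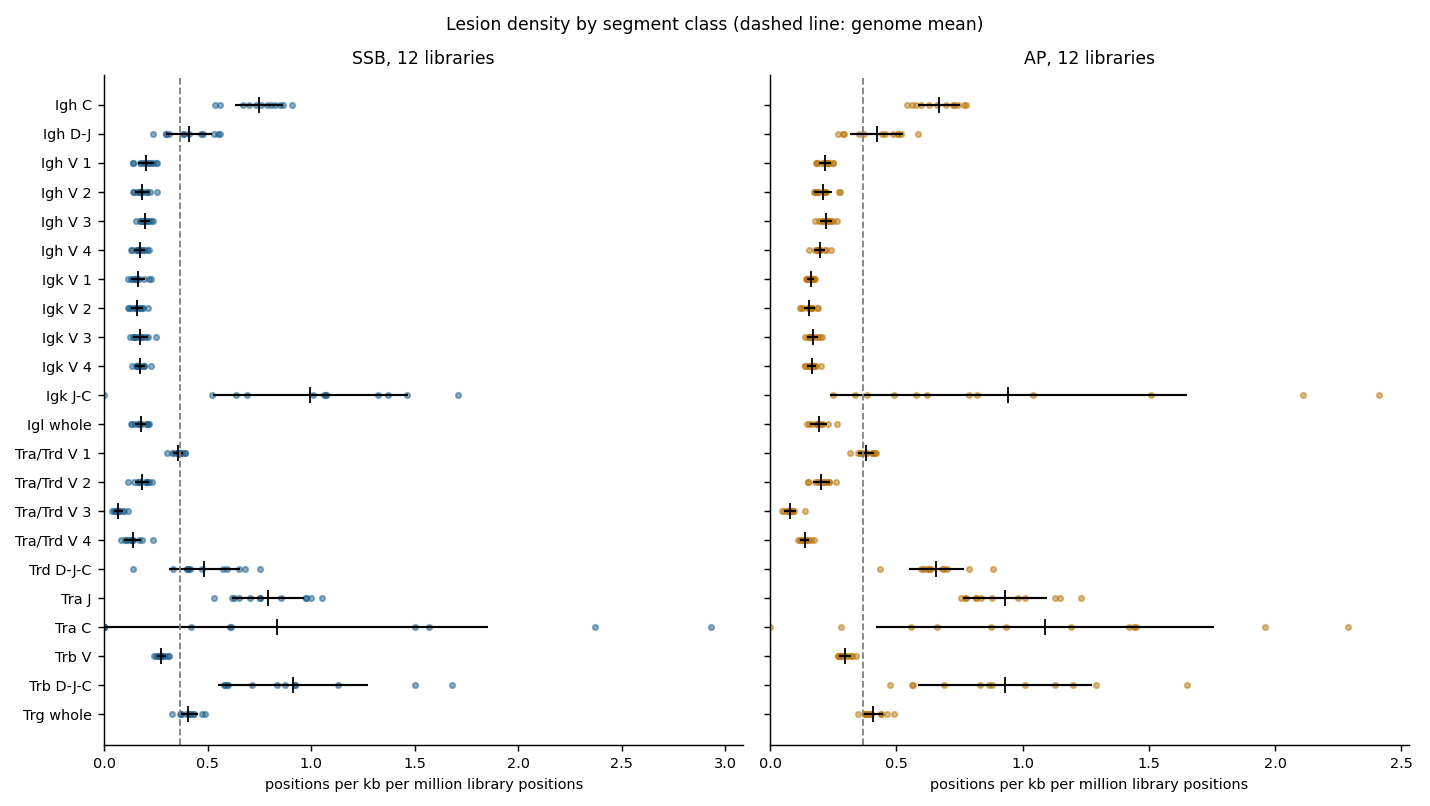
Density of SSB (left) and AP (right) positions as LPKM in the 22 segment classes; points are the 12 libraries, ticks and lines the mean ± SD, and the dashed line the genome mean of 0.367. The mean of every V stretch lies left of the line, apart from Tra/Trd V 1 for AP sites at 0.38, and the constant genes of Igh (0.749 and 0.668) and the J segments of Tra (0.79 and 0.929) lie right of it.

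**Figure D2:**
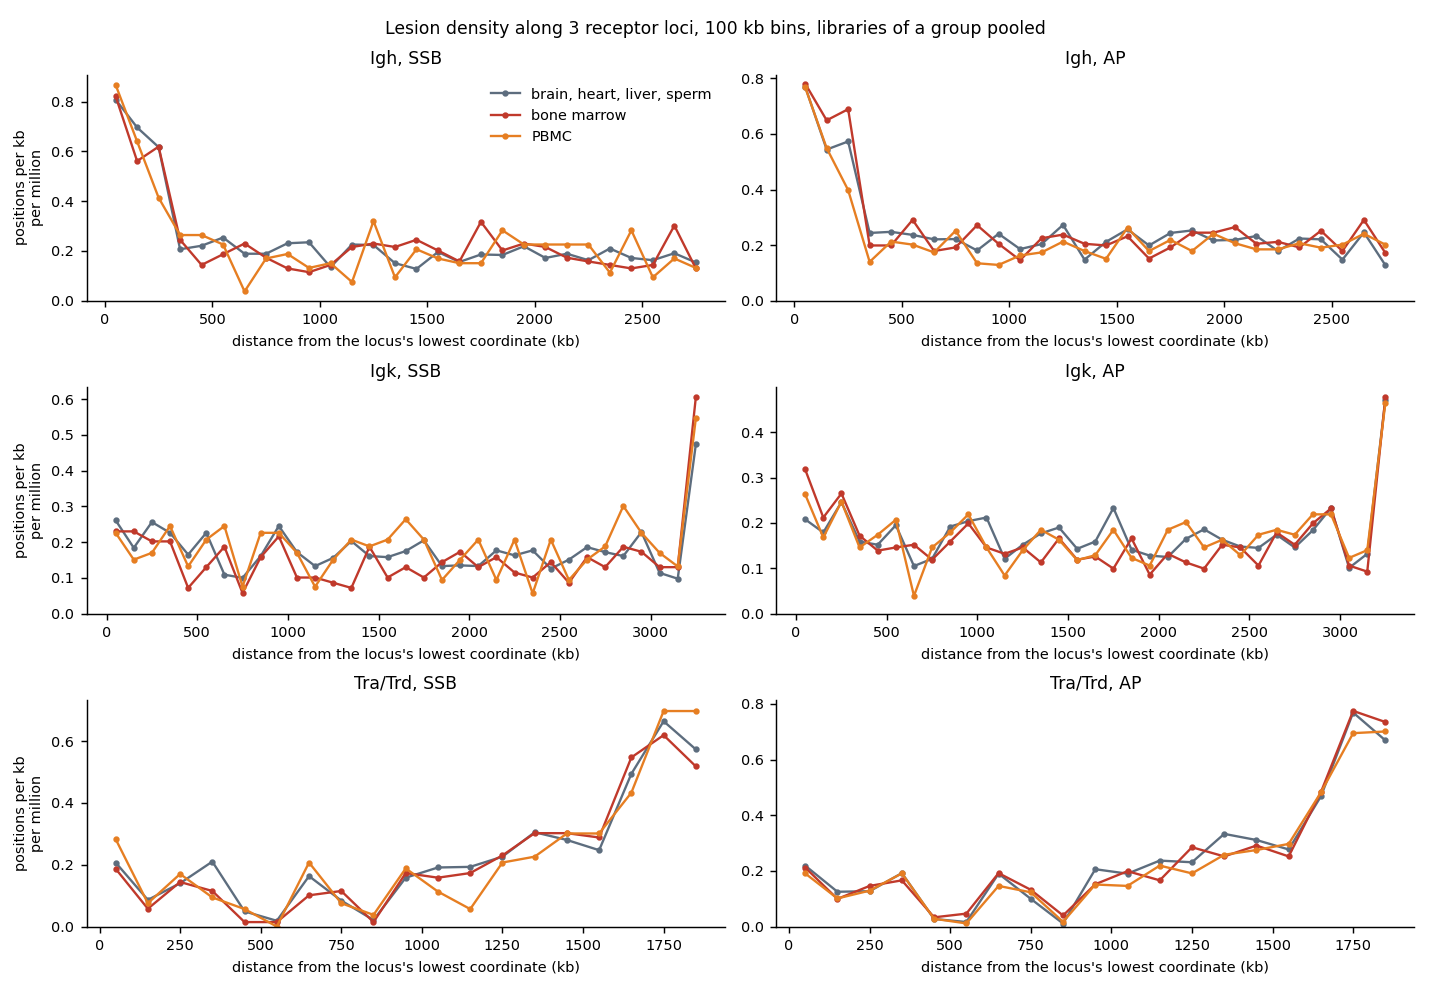
SSB (left) and AP (right) LPKM in 100 kb bins along Igh, Igk and Tra/Trd, by distance in kb from the lowest coordinate of the locus, for PBMC, bone marrow and the other 4 tissues pooled. In Igh the constant genes are at the left end, in Igk and Tra/Trd the J and C segments are at the right end, and the 3 lines rise at those ends. The end bins hold other sequence too. In Igk the J and C segments span only 4.19 kb of the last 100 kb bin, which also holds Rpia. The last bin of Tra/Trd also holds Abhd4 and Dad1.

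The densest windows held constant or joining segments or lay among them. For SSBs they were 3 windows among the Igh constant genes: the one at chr12:113330001-113340000, which reaches into Ighg1, held 92 positions over the 12 libraries. Its density was 0.757 LPKM in bone marrow, 1.16 in PBMCs, 1.77 in brain, 2.06 in heart, 1.78 in liver and 1.74 in sperm. The window at chr12:113300001-113310000 with Ighg2b held 65 positions, and the one at chr12:113290001-113300000 held 64. For AP sites the densest was chr14:54220001-54230000 with Trac, the constant gene of the T cell receptor alpha chain, at 102 positions and 1.12 ± 0.452 LPKM (SD, n = 12). It was followed by chr12:113250001-113260000 with part of Igha at 99 positions and by chr14:54200001-54210000, which holds Traj8 to Traj19, at 97. Bone marrow and PBMC libraries supplied 6 and 6 of the 92 positions in the first SSB window, and 22 and 22 of the 102 in the Trac window.

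No locus was lower or higher in bone marrow and PBMCs by a difference that passed the test. The exact two-sided permutation test of 4 against 8 libraries on mean log2 positions per 1000000 library positions (PPM) can give no p under 0.00202, and p-values were adjusted over the 12 tests of 6 loci and 2 assays. For SSBs all 6 loci were nominally lower, by 0.02 to 0.09 on the log2 scale, with a smallest adjusted p of 0.509 (permutation test). For AP sites 4 were lower and 2 higher, with a smallest adjusted p of 0.145 (permutation test). All loci of an assay share the same libraries, so counts of directions here and below are not of independent results.

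Igh, the heavy chain locus, held 682 and 669 SSB PPM in bone marrow and 582 and 700 in PBMCs, while the other 8 libraries ran from 647 over a median of 676 to 735. The groups overlapped, with 1 PBMC library under all others. The fold of bone marrow and PBMCs over the other tissues was 0.957 (95% interval 0.883 to 1.03; exact permutation p = 0.263). In AP libraries the values were 712 and 773 in bone marrow, 694 and 612 in PBMCs, and 664 to 776 with a median of 732 in the others, a fold of 0.96 (0.875 to 1.05; exact permutation p = 0.354). A loss down to the lower bounds lay within these intervals and was not detectable.

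Igk, the kappa light chain locus, held 523 and 492 SSB PPM in bone marrow, 640 and 605 in PBMCs and 506 to 711 (median 602) in the others. Bone marrow lay at the low end and PBMCs in the middle, and the fold over both was 0.936 (0.81 to 1.08; exact permutation p = 0.337). For AP sites it was 0.949 (0.877 to 1.03; exact permutation p = 0.17), with 525 and 544 in bone marrow, 578 and 559 in PBMCs and 532 to 639 in the others.

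Igl, the lambda light chain locus, had the largest fold of the 12 comparisons in its AP libraries. AP PPM were 62 and 68.7 in bone marrow, 79.1 and 57.2 in PBMCs and 43.4 to 61.2, with a median of 55.4, in the others. All but 1 of the lymphoid-tissue libraries were above all 8 others, a fold of 1.26 (1.05 to 1.5; exact permutation p = 0.0162, adjusted p = 0.145). The difference rested in part on 1 window of the 30, chr16:19260001-19270000 with Iglv2, 1 of the 3 lambda V segments; without it, a choice made after seeing the data, the fold was 1.17 (exact permutation p = 0.0808). With only the windows that had a position in at least 50% of the libraries, the log2 difference was 0.419 and the adjusted p 0.0242 (permutation test). That filter draws on the libraries under comparison, so it cannot serve as separate evidence. It gave the largest difference and the smallest adjusted p of 24 alternatives, which reached down to 0.131 and up to an adjusted p of 0.485 (permutation test). For SSBs the Igl values were 52.3 and 63.6 in bone marrow, 48.9 and 39.2 in PBMCs and 40 to 65 in the others, a fold of 0.954 (0.752 to 1.22; exact permutation p = 0.667). The 1 Mb on either side of Igl held 932 to 1075 SSB PPM in bone marrow and PBMCs and 790 to 924 in the others, with no overlap (adjusted p over 12 flank tests 0.0242, permutation test). To compare the assays, AP and SSB libraries were paired by tissue and replicate number, though the labels do not say that a number marks an animal. The AP and SSB effects differed by 0.40 on the log2 scale (exact permutation p = 0.0566, adjusted over 6 loci 0.303), so a difference between the assays was not established. These are small counts, 222 AP positions in the 4 libraries and 293 in the 8.

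Tra/Trd, the alpha and delta chain locus, held 425 and 373 SSB PPM in bone marrow, 413 and 428 in PBMCs and 393 to 473 in the others, a fold of 0.941 (0.858 to 1.03; exact permutation p = 0.164). For AP sites the fold was 0.966 (0.873 to 1.07; exact permutation p = 0.471). Trb, the beta chain locus, showed the reverse of Igl for AP sites: bone marrow at 229 and 231 and PBMCs at 228 and 233 PPM lay close together at the bottom of the range of the others, 228 to 284 with a median of 256. The fold was 0.903 (0.839 to 0.972; exact permutation p = 0.0242, adjusted p = 0.145), and the 1 Mb flanks of Trb were lower too, by 0.07 on the log2 scale (exact permutation p = 0.0303, adjusted over 12 flank tests 0.182). The second AP library of heart, at 228, was the only other library within 228 to 233. Leaving it out removed all overlap and gave -0.170 on the log2 scale (adjusted p = 0.0364, permutation test, the smallest of 23 alternatives). Over these alternatives the adjusted p ran up to 0.327, so this 1 choice of libraries does not settle the difference. Trb SSB positions gave a fold of 0.986 (0.905 to 1.07; exact permutation p = 0.723). Trg, the gamma chain locus, gave 0.985 (0.846 to 1.16) for SSBs and 1.05 (0.905 to 1.21) for AP sites, exact permutation p = 0.834 and 0.479. The spread of Trg SSB positions lay among the other tissues instead, from 104 ± 8.22 PPM in liver to 143 ± 3.38 in brain (SD, n = 2).

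**Figure D3:**
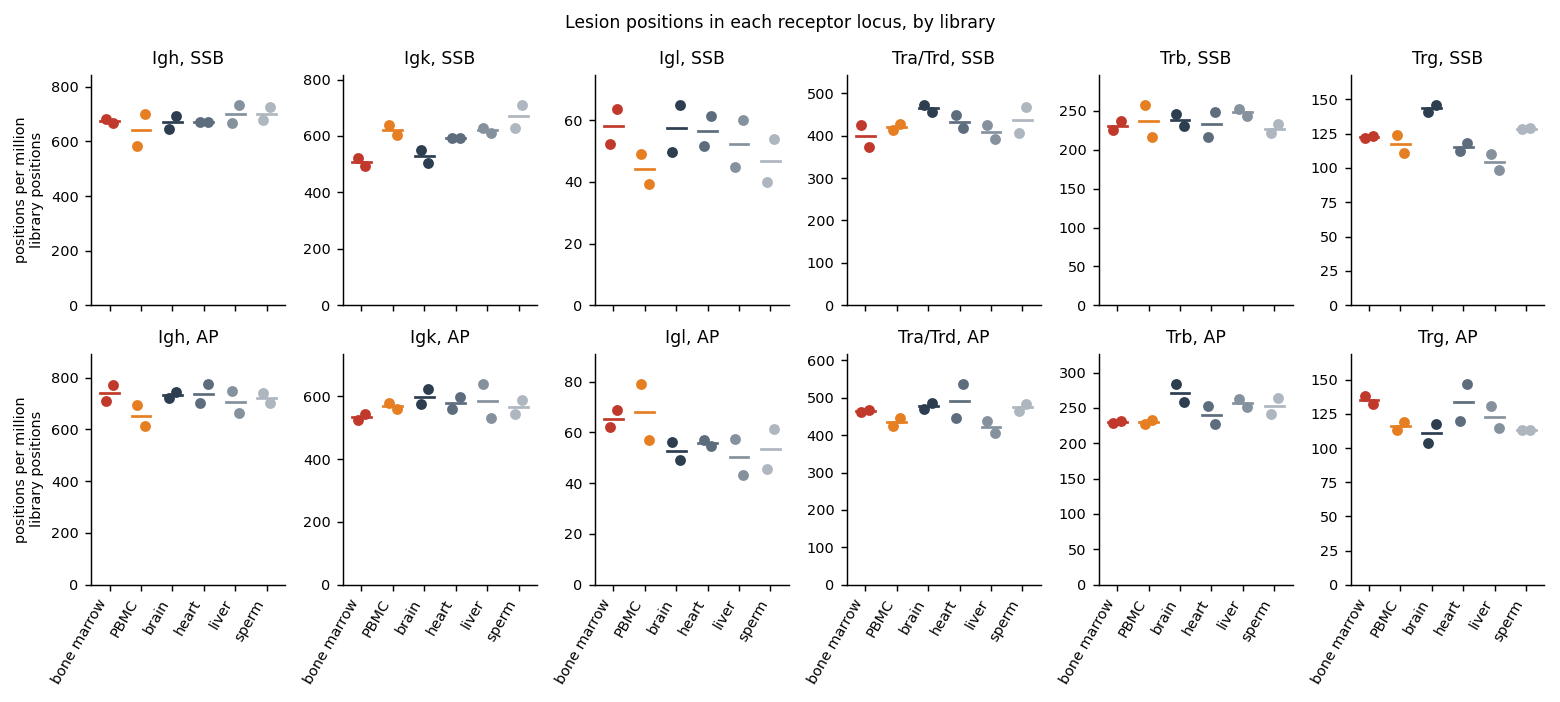
Lesion positions per 1000000 library positions in each of the 6 loci, SSB in the upper row and AP in the lower; points are libraries, 2 per tissue, and bars their means. Bone marrow and PBMC points overlap those of the other 4 tissues in every panel; in AP Igl they reach 79.1 against at most 61.2, and in AP Trb they lie at 228 to 233 within a range of 228 to 284.

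On their own, PBMCs and bone marrow gave 2 libraries against 8, where no p can fall under 0.0222 and a test standing alone could reach no adjusted p under 0.267. For AP sites PBMCs were lower in 5 of 6 loci, with Igh at a fold of 0.9 (0.814 to 0.99; exact permutation p = 0.0444, smallest adjusted p of the family 0.48). Its log2 difference of -0.15 was -0.061 without PBMC replicate 2 and -0.243 without replicate 1. Bone marrow AP positions were lower in 3 loci and higher in 3. For SSBs PBMCs were lower in 5 of 6 loci and bone marrow in 4 of 6, none with an unadjusted p under 0.05 (exact permutation test).

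The D-J span of Igh is the part that every complete heavy chain rearrangement shortens. Its AP density was 0.291 and 0.268 LPKM in PBMCs, from 26 and 23 positions, and 0.505 and 0.506 in bone marrow. In the others it ran from 0.287 to 0.585. PBMCs stood at the low end with 1 liver library, and bone marrow in the upper part. Pooled, the PBMC libraries had 0.633 times the AP density of the other 4 tissues (exact interval 0.455 to 0.863, which covers counting error only). On the mean log2 scale, with 0.5 positions added to each library, PBMCs were lower by 0.61 (95% interval -1.24 to -0.02, exact permutation p = 0.0222, adjusted p = 0.489). This p is the smallest possible only because of the added 0.5. Without it the liver library at 0.287 LPKM lay between the PBMC libraries at 0.268 and 0.291. Bone marrow had 1.14 times the pooled density (0.871 to 1.49). In SSB libraries the span held 9 and 7 positions in PBMCs, 0.407 and 0.233 LPKM, against 0.297 to 0.548 in the others, a pooled ratio of 0.715 (0.4 to 1.19; exact permutation p = 0.244). The log2 difference of -0.38 was 0.016 without PBMC replicate 2 and -0.768 without replicate 1. The constant genes just beyond, in the same libraries, had PBMC ratios of 0.997 (0.844 to 1.17) for AP sites and 0.91 (0.687 to 1.19) for SSBs. The V stretch nearest the D segments had PBMC ratios of 0.827 (0.703 to 0.968) and 0.774 (0.574 to 1.02). V stretch 2 had 0.858 (0.73 to 1.01) and 0.957 (0.71 to 1.27), V stretch 3 had 0.891 (0.763 to 1.04) and 1.12 (0.854 to 1.45), and V stretch 4, the farthest, had 1.03 (0.876 to 1.2) and 1 (0.743 to 1.32). The intervals overlap, and no difference between the stretches was tested.

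Across the 22 segment classes in each assay, no 4-against-8 comparison passed adjustment over 44 tests (smallest adjusted p 0.378, permutation test; a class standing alone could reach no less than 0.0889). SSB positions were lower in bone marrow and PBMCs in 18 of 22 classes, with a median of -0.13 on the log2 scale, and AP positions in 14 of 22, with a median of -0.12. The classes share libraries and some overlap, so these counts are not of independent results. Among 10 kb windows tested, 54.5% of members were lower for SSBs and 46.8% for AP sites, near the 52.1% and 46.6% of all windows. Classes with an unadjusted permutation p under 0.05 were 1 for SSBs and 2 for AP sites. For SSBs it was the V stretch of Igh nearest the D segments, lower by 0.37 (95% interval -0.70 to -0.06; exact permutation p = 0.0242), where the 4 libraries had 0.14 to 0.199 LPKM and the others 0.171 to 0.256. Its AP difference was -0.13 (-0.34 to 0.08). For AP sites they were Igl, given before, and V stretch 3 of Igk, counted from its J segments, lower by 0.22 (-0.42 to -0.03; exact permutation p = 0.0323), with an SSB difference of -0.16 (-0.53 to 0.24). The J and C segments of Igk, at 4.19 kb, held 3 SSB positions in the 4 libraries and 21 in the 8, and 17 and 17 AP positions, and gave -0.57 (-1.43 to 0.25) and 0.78 (-0.32 to 1.89), opposite signs within wide intervals.

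The Trd D, J and C segments, which a Tra rearrangement removes, did not differ detectably: 0.32 (-0.48 to 1.14) for SSBs and -0.21 (-0.52 to 0.08) for AP sites on the log2 scale (exact permutation p = 0.41 and 0.176). PBMC AP densities there were 0.639 and 0.701 LPKM and bone marrow 0.434 and 0.616, within or below the 0.598 to 0.884 of the other 8 libraries. The J segments of Tra gave -0.11 (-0.54 to 0.33) and -0.05 (-0.40 to 0.31). The second V stretch of Tra/Trd was low in PBMC SSB libraries, at 0.114 and 0.144 LPKM against 0.162 to 0.229 in the others, a pooled ratio of 0.693 (0.461 to 1.01), with an AP ratio of 0.809 (0.662 to 0.982). The D, J and C segments of Trb gave -0.14 (-0.86 to 0.58) for SSBs and -0.27 (-1.01 to 0.45) for AP sites.

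**Figure D4:**
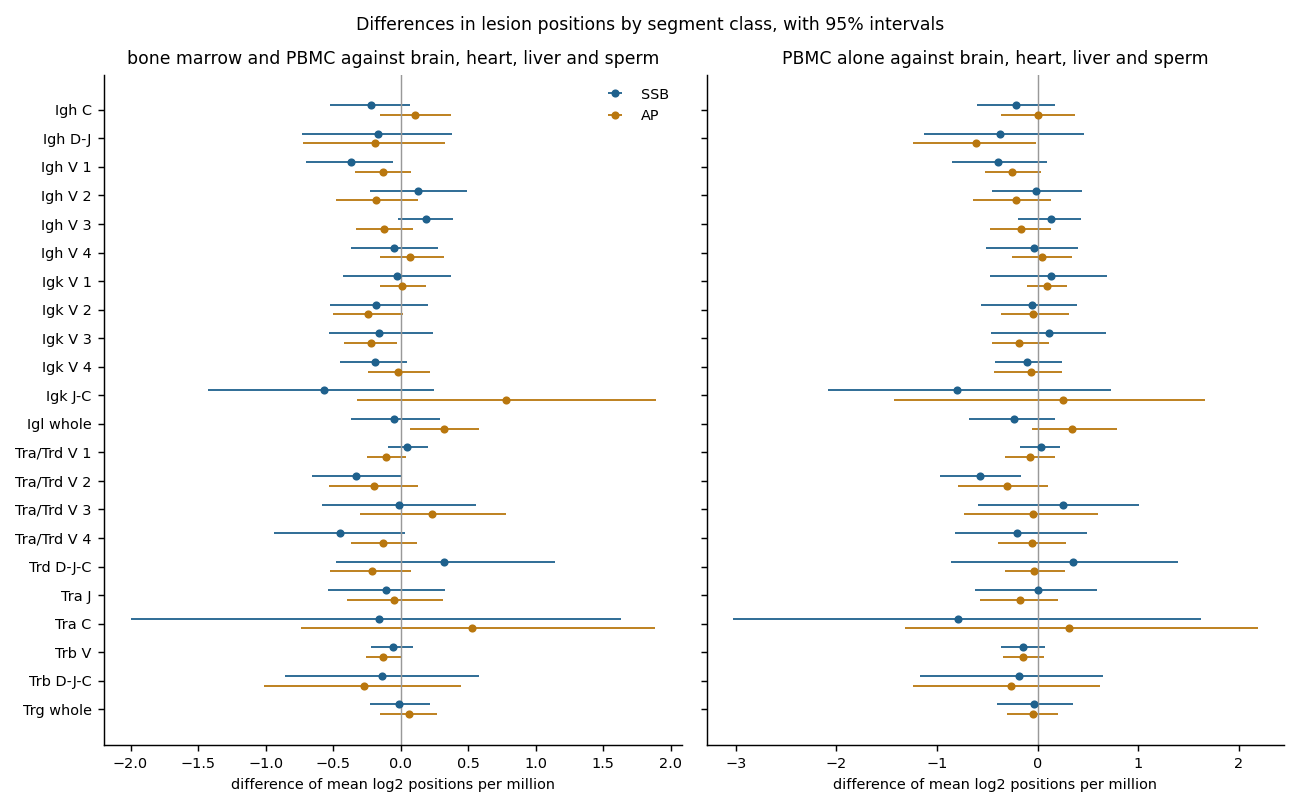
Difference of mean log2 PPM in the 22 segment classes, with 95% intervals from the inverted permutation test, for bone marrow and PBMCs (left, 4 against 8 libraries) and for PBMCs alone (right, 2 against 8); SSB in blue and AP in orange. Most intervals include 0, and those of the short classes Igk J-C and Tra C are the widest; at the right, the AP interval of Igh D-J runs from -1.24 to -0.02.

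At 10 kb resolution no member window was called in either assay. The edgeR quasi-likelihood test was run on all windows with at least 12 positions, which kept 407 of the 940 members among 179800 windows for SSBs and 624 among 206394 for AP sites. With Benjamini-Hochberg adjustment, bone marrow and PBMCs against the other 4 tissues gave 0 calls in the genome (0% of windows tested) for SSBs and 0 (0%) for AP sites, and DESeq2 gave 0 for each as well. At an unadjusted p under 0.05, 9 SSB member windows were lower and 13 higher, 2.21% and 3.19% of members beside 2.65% and 2.08% of all windows tested. For AP sites 10 were lower and 12 higher, 1.6% and 1.92% of members beside 1.8% and 2.73% of all. On the log2 scale, member windows had a median difference of -0.13 in SSB libraries, where all windows tested had -0.04, and of 0.04 in AP libraries, where all had 0.04. For PBMCs alone there was no call (0% in each assay), and members at an unadjusted p under 0.05 were 1 lower and 9 higher for SSBs (1.63% and 2.28% of all windows) and 11 lower and 12 higher for AP sites (1.5% and 2.91%). For bone marrow alone 1 window of the genome, outside the loci, was called for SSBs (0.000556%) and none for AP sites (0%). Members at an unadjusted p under 0.05 were 3 lower and 12 higher for SSBs (1.82% and 2.89% of all windows) and 6 lower and 16 higher for AP sites (1.6% and 2.86%). The share of member windows at an unadjusted p under 0.05 was near or under the genome's in each of these comparisons, apart from the higher SSB windows of bone marrow and PBMCs.

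The member windows with the smallest p were named by rule, and none passed adjustment (edgeR adjusted p of 0.951 for SSBs and 1 for AP sites). For AP sites the first was the Iglv2 window. It held 4 and 7 positions in bone marrow, 7 and 5 in PBMCs and 0 to 2 in each other library, or 5.72 to 7.69 PPM against 0 to 4.11. The groups did not overlap, and the log2 difference was 2.32 (edgeR unadjusted p = 1.86e-04). The second was chr14:54130001-54140000 with Trdj2, a joining segment of the delta chain. It held 0 and 2 AP positions in bone marrow, 1 and 0 in PBMCs and 2 to 5 in each of the others, a log2 difference of -2.24 (edgeR unadjusted p = 0.00241). The third, chr12:114200001-114210000 among the V segments of Igh, held 1 position in the 4 libraries and 18 in the 8. For SSBs the first 3 windows all lay in Igk and were higher, by 2.17 to 2.66 on the log2 scale (edgeR unadjusted p = 0.00581 to 0.0136). They held 12 to 20 positions in all 12 libraries. At chr6:69970001-69980000 bone marrow had 2 and 2 positions, PBMCs 1 and 4 and the others 0 to 5, and the groups overlapped relative to library totals.

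Lesions were denser within 100 bp of the segment ends where recombination signals are expected than farther away, in all AP libraries and all but 1 SSB library. This ratio pooled all loci and classes, and D and J spans were denser than most V stretches. No ratio within a class was computed, so closeness to an end and segment class cannot be told apart. The segment ends numbered 496 (354 of V, 48 of D, 94 of J segments) and their surroundings within 100 bp covered 94.8 kb. They were annotated ends, pseudogenes included, and the signals themselves were not located. V segments of Igk and Trg, Trdv5 and Trbv31 were left out because the gene table gives no orientation. For AP sites the density within 100 bp was 1.65 to 2.7 times that from there to 1000 bp, over 1 in 12 of 12 libraries, and for SSBs 0.948 to 1.8 times, over 1 in 11 of 12. The highest AP ratio was in a sperm library. The share of locus positions at these ends was 4.56% ± 0.262 (SD, n = 4) in bone marrow and PBMC AP libraries and 4.6% ± 0.715 (SD, n = 8) in the others, a difference of -0.0347 percentage points (95% interval -0.861 to 0.795; exact permutation p = 0.931). For SSBs it was 2.99% ± 0.809 (SD, n = 4) and 3.36% ± 0.392 (SD, n = 8), a difference of -0.37 (-1.13 to 0.308; exact permutation p = 0.323). PBMC SSB libraries were lowest with the value for 1 liver library between them, at 1.94% and 2.8%, from 27 positions. No excess of lesions at these ends in bone marrow and PBMCs was detectable.

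**Figure D5:**
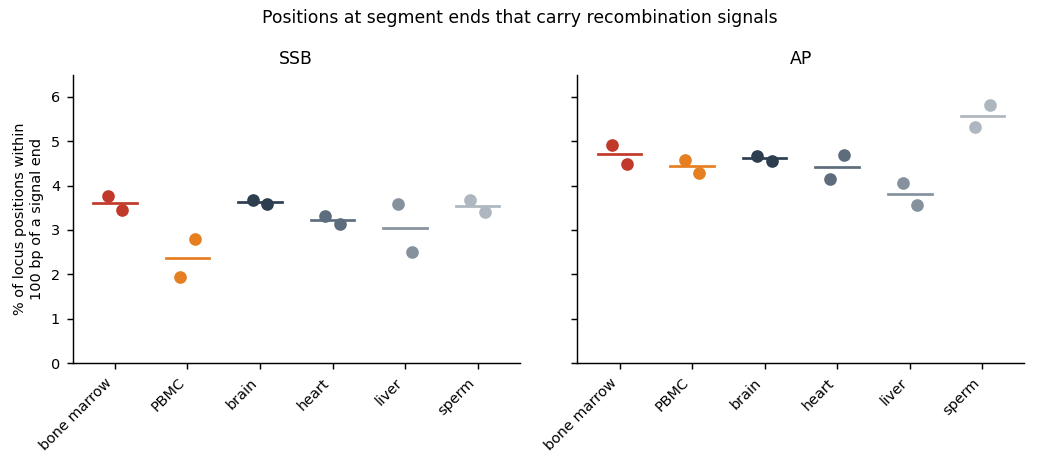
Percent of the SSB (left) and AP (right) positions of the loci that lie within 100 bp of a segment end where a recombination signal is expected, by tissue. Points are libraries and bars their means. Bone marrow and PBMC libraries run from 1.94% to 3.76% for SSBs and from 4.29% to 4.92% for AP sites, and sperm has the highest AP values, 5.31% and 5.81%.

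Single nucleotides rarely recurred. Of 11579 SSB nucleotides in the loci, 47 (0.406%) were seen in 2 or more libraries, and of 18929 AP nucleotides 242 (1.28%), next to 0.519% and 1.45% in the genome. The most recurrent was an AP nucleotide on the plus strand, chr12:114366386, 140 bp from Ighv12-3, found in 5 libraries: 1 brain, 2 heart, 1 liver and 1 sperm, and none of bone marrow or PBMCs. The only SSB nucleotide in 3 libraries was chr12:113423318, on the plus strand 588 bp from Ighm, found in bone marrow, heart and liver. The other AP nucleotides seen in 3 libraries numbered 6, of which 3 lay inside a V segment (Ighv1-55, Trav6d-4 and Trav13-3) and 1 in Try10. The one in Trav13-3, at chr14:53729989, was found in both PBMC libraries and a sperm library. The plus strand held 49.8% of SSB and 51.1% of AP nucleotides of the loci.

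The landmark genes had few positions each. Among the 8 heavy chain constant genes, SSB positions over the 12 libraries numbered from 7 in Ighg2c to 33 in Ighd, and AP positions from 15 in Ighg2c to 59 in Ighd. Per length, pooled over the libraries, Ighm (the mu chain, the first expressed) was highest for SSBs at 1.44 LPKM and Ighg2b for AP sites at 1.53, and Ighd was lowest in both, at 0.68 and 0.761. PBMC libraries had 0 SSB positions in Ighm, where the other 4 tissues had 26 (1.55 LPKM), and 3 AP positions (0.431 LPKM) against 20 (0.926 LPKM). These counts come from unequal totals: the PBMC SSB libraries held only 225011 and 305827 positions in all. A count of 0 allows up to 3 positions in the PBMC SSB libraries, and the difference was not tested. Igkc, the kappa constant gene, held 3 SSB and 4 AP positions, and the lambda constant genes Iglc1, Iglc2 and Iglc3 held 0 to 4 of each. Trac held 18 and 36, Trdc 11 and 17, Trbc1 4 and 8, Trbc2 9 and 15, and the gamma constant genes 6 to 18 SSB and 12 to 38 AP positions. Adam6b held 8 SSB and 23 AP positions and Adam6a 8 and 26. Of the 8 SSB positions of Adam6a, 4 came from PBMCs (3.01 LPKM) and 3 from the other 4 tissues (0.279 LPKM). Of its 26 AP positions 2 came from PBMCs (0.447 LPKM) and 20 from the others (1.44 LPKM). These opposite directions rest on few positions and were not tested. The trypsin and trypsin-like genes between the V segments of Trb ran from 4 to 18 SSB and from 5 to 27 AP positions, with Gm5771 highest for SSBs and Try10 for AP sites.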

How the data were processed

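The authors deposited 1 BED file of lesion nucleotides for each of 24 libraries, made from reads aligned to GRCm38 (the submitters' processing notes name mm10 and GRCm38); the aligner is not given in the sources used here. Each nucleotide and strand was taken once, so the values are whole-number counts of positions per 10 kb window, and the authors' files carry no scaling. The 12 RNA samples were not analysed here. Counts were divided by all positions of the library.

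Members and lists were chosen with earlier results of these data known. Loci, 22 segment classes and segment ends came from the RefSeq gene table of GRCm38.p6, and promoter sequences from RefSeq on the same build. Locus and class totals (0.5 positions added for classes) were compared by the exact permutation test, two-sided, with Benjamini-Hochberg adjustment and 95% intervals from inverting the test; intervals of pooled ratios are exact Clopper-Pearson and cover counting error only. Windows with at least 12 positions over 12 libraries were tested with edgeR 4.0.16 (quasi-likelihood, library size as offset, adjusted p under 0.05); DESeq2 1.42.0, whose dispersion trend fell back to a local fit, was an alternative. Named were fixed landmark genes and, per assay, the 3 member windows with the smallest unadjusted p and the 3 with most positions. Methods were tested on simulated data. For the window test these had no spread beyond counting error, and a large change was planted only in windows with many positions. That simulation therefore does not show what the test could find in most member windows. Same-numbered libraries of different tissues had correlations of their deviations from -0.0133 to 0.0111 for SSBs and from -0.141 to 0.0856 for AP sites, with 0 of 15 tissue pairs over 0.1. At such low counts per window a shared animal could go unseen, so this check cannot exclude pairing. The labels do not say that a number marks an animal, and numbers were not used to pair libraries in the main tests. Alternatives left out single libraries or tissues, changed filters, scaling, window size and distance to segment ends, added a replicate block, or set loci against their 1 Mb flanks.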

Additional observations from a re-analysis of the deposited data

Results flagged for a closer look

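PBMCs and bone marrow stood on opposite sides of the mean of the other 4 tissues in 4 results. In each, both libraries of a tissue lay on the same side of that mean. Sides were not judged by range: the AP Trg libraries of both tissues and the PBMC libraries for SSB Igk lay within the range of the others. The 4 were picked from the loci and segment classes of both assays, and whether they exceed a chance number was not tested. The differences between PBMCs and bone marrow were not tested either. Igk held 622 SSB positions per 1000000 library positions (PPM) in PBMCs, 508 in bone marrow and 603 in the other tissues, so PBMCs exceeded bone marrow by 115. The D-J span of Igh held 27.5, 49.7 and 43 AP PPM, a PBMC minus bone marrow difference of -22.2. Trg held 135 AP PPM in bone marrow and 120 in the other tissues, with a PBMC minus bone marrow difference of -19. V stretch 3 of Tra/Trd held 30.2, 46.1 and 31.9 AP PPM in PBMCs, bone marrow and the others, a difference of -15.9.

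The 1 Mb on either side of Igl, which is not part of the receptor locus, carried more SSB positions in bone marrow and PBMCs than in the other tissues, by 0.22 on the log2 scale, higher in 4 of 4 libraries than in any of the 8 others. The exact permutation p was 0.00202, the smallest possible, and the p adjusted over 12 flank tests 0.0242. Libraries and not tissues were permuted, so this p does not cover the spread between tissues. The flanks were tested after seeing the data.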

How the results depend on the processing

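Of the alternatives tried, 264 of 278 kept the direction and the side of the threshold among the locus totals, 627 of 664 in the segment classes, 505 of 540 in PBMCs or bone marrow alone, 23 of 28 at the segment ends and 81 of 84 in the 10 kb windows. The exceptions in the classes and in PBMCs or bone marrow alone, 37 and 35, were changes of sign and not of call. The cause of the exceptions was not tested. Values are log2 differences unless named otherwise.

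With the 1 Mb flanks as denominator the sign changed for SSB Trg (0.037; as a segment class 0.046), SSB Igh V 2 (-0.016), SSB Tra/Trd V 1 (-0.003), AP Igh V 4 (-0.025) and AP Igk V 4 (0.020), for AP Trg in PBMCs alone (0.063), and for SSB Igl (-0.153) and AP Igh (-0.123) in bone marrow alone. Without sperm it changed for SSB Trg (0.004; as a class 0.014), SSB Igk V 1 (0.020), SSB Tra/Trd V 3 (0.001) and AP Tra/Trd in bone marrow alone (0.007). Without brain it changed for SSB Trg (0.057), SSB Igk and SSB Trg in PBMCs alone (-0.009 and 0.028) and AP Tra/Trd in bone marrow alone (0.011). Without heart it changed for AP Trg in PBMCs alone (0.007), and for SSB Trg (-0.020) and AP Tra/Trd (0.023) in bone marrow alone. Without liver it changed for SSB Trb (0.004), SSB Trb in PBMCs alone (0.020) and SSB Trg in bone marrow alone (-0.069). It also changed for SSB Trg (0.022) and SSB Igl (0.131) as the mean of SSB and AP, SSB Igh in bone marrow alone without the densest 1% of windows (0.002), AP Tra/Trd in bone marrow alone with summed counts (0.003) and, chosen after seeing the data, SSB Tra/Trd V 1 without Trdv5 (-0.042). AP Igl passed the threshold when windows seen in fewer than 50% of libraries were dropped (0.419). The difference in share at segment ends was 0.257 percentage points for SSBs within 200 bp and 0.195 for AP sites within 50 bp. SSB windows called over the genome numbered 10 with 100 kb windows and 2 with the summed counts, with 0 members among them.

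Leaving out 1 library in turn gave, for the locus totals, -0.181 to 0.051 for SSB Igl, -0.068 to 0.018 for SSB Trb and -0.066 to 0.015 for SSB Trg, each turned by PBMC replicate 2 (and Trg also by either brain library), -0.11 to 0.003 for AP Igh, turned by PBMC replicate 2, and -0.17 to -0.125 for AP Trb, which passed without heart replicate 2. For the SSB classes it gave -0.385 to 0.023 for Igh D-J, -0.008 to 0.181 for Igh V 2, -0.163 to 0.042 for Igh V 4, -0.208 to 0.114 for Igk V 1, -0.16 to 0.068 for Igl, -0.277 to 0.197 for Tra/Trd V 3, -0.245 to 0.03 for Tra J, -0.735 to 0.127 for Tra C and -0.058 to 0.023 for Trg. For the AP classes it gave -0.011 to 0.132 for Igh V 4, -0.025 to 0.077 for Igk V 1, -0.05 to 0.027 for Igk V 4 and -0.2 to 0.021 for Tra J. For PBMCs alone it gave -0.237 to 0.028 for SSB Igh, -0.133 to 0.124 for SSB Trb, -0.132 to 0.03 for SSB Trg, -0.768 to 0.016 for SSB Igh D-J, -0.243 to -0.061 for AP Igh and 0.117 to 0.584 for AP Igl. For bone marrow alone it gave -0.009 to 0.271 for SSB Igl, -0.075 to 0.004 for SSB Trb, -0.037 to 0.045 for SSB Trg, -0.402 to 0.454 for SSB Igh D-J, -0.222 to -0.032 for SSB Tra/Trd, -0.024 to 0.094 for AP Igh and -0.03 to 0.027 for AP Tra/Trd. The AP difference at segment ends ran from -0.183 to 0.139 percentage points, and AP windows called over the genome from 0 to 1.

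The replicate block changed no call: AP Igl stayed at 0.329 (adjusted p = 0.187, exact permutation within numbers) and AP Trb at -0.147 (adjusted p = 0.187, exact permutation within numbers), and 0 windows were called. With 2 libraries a tissue and 225011 positions in the smallest library, short classes such as Igk J-C could not show differences smaller than their intervals.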
